A study of Mus musculus with 16 samples.

Results

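The genes described are 34 genes of the Hippo pathway's nuclear end and its surroundings: the TEAD transcription factors with their partner Vgll4 (5 genes), regulators of the pathway (12 genes) and target genes of the coactivator YAP (17 genes). They were taken as a named list, from probe sets whose platform annotation gives that gene alone, with the probe set of the highest mean used for each gene. The arrays measure 19938 such genes. Of these, 13152 passed a signal filter, among them 32 of the 34. To pass, 4 or more arrays had to read the probe set at or above the array's own 40th percentile. Ankrd1 reached it in 0 arrays and Ajuba in 1. Amot (4 arrays), Amotl1 (5), Map4k4 (5), Gli2 (6), F3 (7), Myof (10) and Fjx1 (11) passed it in only part of the 16 arrays.

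Liver RNA was hybridised from mice of strain 129 in 4 genotypes with 4 samples each, 16 arrays in all: wild type, Rassf1a-/- (both copies of the isoform disrupted), Sav1+/- (1 of the Sav1 copies lost) and Rassf1a-/- Sav1+/- (the double genotype). No treatment is named, and for sex, age and the design of the alleles the labels give nothing. The labels do not say that each sample is its own animal, so p-values measure only how far these samples spread, which may be technical. The study's title concerns liver tumours in mice without Rassf1a, and the comparisons set each lesion, and both together, against wild-type liver.

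In the Hippo pathway the kinases Stk3 and Stk4, held by the adaptor Sav1, activate Lats1 and Lats2, which phosphorylate YAP and its relative TAZ and keep them out of the nucleus. Unphosphorylated YAP enters the nucleus, binds TEAD proteins on DNA and turns on genes such as Ccn1, Ccn2 and Ankrd1. In mouse liver the pathway restrains organ size, and liver-specific loss of Sav1 leads to overgrowth and tumours. RASSF1A is a scaffold that binds the kinases Stk3 and Stk4.

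TEAD proteins bind the sequence GGAATG, which reads CATTCC on the other strand, and the stretch upstream of the start site shows where these letters occur in the genes described. RefSeq promoter entries (GRCm38.p6) were found for 25 of the 34 genes, in 28 windows of 250 bases ending at the start site. No entry was found for Ccn2, Dlc1, Asap1, Tead1, Tead4, Map4k4, Nuak2, Arhgef17 and Fjx1, so these were not searched. The motif on either strand was present in 11 of the 28 windows (39.3%), belonging to 10 genes. Over all genes it was present in 4153 of 32851 windows of the same length (12.6%). Ankrd1, Axl, Ccn1 and Crim1 are the targets among the 10. The rest are the regulators Ajuba, Amotl2, Ptpn14 and Wwc2, and Tead3 and Vgll4. Tead3 was counted in more than 1 window, and its windows overlap. Ccn1, Ankrd1 and Crim1 are shown as target genes with a match, Amotl2 and Vgll4 as inhibitors of YAP activity with one, each 5′ to 3′ on the gene's strand with the motif in capitals. A match is a description of the letters and not a bound site.
Ccn1, chr3:145649986-145650235 (minus strand): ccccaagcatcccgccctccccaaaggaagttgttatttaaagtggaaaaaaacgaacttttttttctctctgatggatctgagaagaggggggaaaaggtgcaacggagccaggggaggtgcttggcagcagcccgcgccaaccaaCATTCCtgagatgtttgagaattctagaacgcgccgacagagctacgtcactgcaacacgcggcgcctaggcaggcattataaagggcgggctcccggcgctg
Ankrd1, chr19:36119845-36120094 (minus strand): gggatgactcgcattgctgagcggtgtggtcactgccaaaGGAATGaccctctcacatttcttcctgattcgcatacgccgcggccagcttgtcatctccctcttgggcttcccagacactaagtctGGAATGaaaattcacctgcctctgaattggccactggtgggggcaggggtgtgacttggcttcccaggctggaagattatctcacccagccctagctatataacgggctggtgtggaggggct
Crim1, chr17:78199998-78200247 (plus strand): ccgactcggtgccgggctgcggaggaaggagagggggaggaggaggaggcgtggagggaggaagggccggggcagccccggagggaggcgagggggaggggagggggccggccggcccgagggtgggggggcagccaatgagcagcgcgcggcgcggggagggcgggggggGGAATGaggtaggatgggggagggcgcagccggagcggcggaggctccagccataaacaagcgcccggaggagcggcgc
Amotl2, chr9:102717554-102717803 (plus strand): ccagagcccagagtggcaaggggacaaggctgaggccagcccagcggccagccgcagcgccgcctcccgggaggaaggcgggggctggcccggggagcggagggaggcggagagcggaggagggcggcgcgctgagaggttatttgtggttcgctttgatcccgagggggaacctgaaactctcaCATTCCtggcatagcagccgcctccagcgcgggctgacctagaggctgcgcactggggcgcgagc
Vgll4, chr6:114969204-114969453 (minus strand): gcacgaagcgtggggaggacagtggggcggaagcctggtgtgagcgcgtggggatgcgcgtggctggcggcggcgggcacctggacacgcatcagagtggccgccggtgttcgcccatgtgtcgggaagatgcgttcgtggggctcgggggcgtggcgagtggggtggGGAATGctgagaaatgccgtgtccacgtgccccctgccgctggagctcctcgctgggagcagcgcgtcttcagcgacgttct
The Ankrd1 window holds 2 matches, both in the forward reading, and the other 4 windows hold 1 each. In Ccn1 the match spans bases 103 to 98 before the start, in Amotl2 65 to 60, in Crim1 79 to 74 and in Vgll4 82 to 77. Ccn1 and Amotl2 carry it as CATTCC.

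The tissue and the labels were checked first. All 7 hepatocyte markers lay at percentile 97.1 or higher in every array, whereas of 5 measured bile duct markers only Epcam passed the filter. Sav1 averaged 8.53 ± 0.11 in wild type and 8.61 ± 0.14 in Rassf1a-/- (log2 signal, mean ± SD, n = 4 each), against 7.64 ± 0.37 in Sav1+/- and 7.65 ± 0.27 in the double genotype. Averaged over the Rassf1a states its log2 signal fell by 0.93 (SE 0.12, limma, adjusted p = 0.0113). Rassf1 differed between Rassf1a-/- and wild type by -0.24 (SE 0.195, limma, adjusted p = 0.667). Its probe set is annotated by gene and not by isoform, so this value cannot check the loss of Rassf1a. Arrays of 1 genotype correlated at r = 0.925 to 0.975 over all 35556 probe sets, and arrays of different genotypes at 0.924 to 0.975. The arrays did split by the Y chromosome. In 5 arrays the mean of Eif2s3y, Kdm5d and Uty was 8.87 to 9.18 and Xist 2.12 to 4.31, and in the other 11 that mean was 2.09 to 4.17 and Xist 10.3 to 11.5. The first kind, called high-Y here, came from 0 wild-type arrays, 1 Rassf1a-/- array (replicate 2), 2 Sav1+/- arrays (replicates 3 and 4) and 2 arrays of the double genotype (replicates 1 and 2), leaving 4, 3, 2 and 2 other arrays. Of the 96 differences of the 32 tested genes from wild type, 20 changed sign without the high-Y arrays, 8 of them with a size over 0.2 before or after, and none was called in that fit; values without these arrays stand beside the results they move most.

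Across the genotype comparisons, 1 of the 32 tested genes passed in 1 comparison: Dlc1 rose with loss of Rassf1a when both Sav1 states were averaged. Against wild type, no gene of the list was called at an adjusted p under 0.05 by limma's moderated test in Rassf1a-/- (0.7% of all 13152 genes were called), in Sav1+/- (0%) or in the double genotype (0.821%). With averaging, 1 of 32 was called for Rassf1a (2.23% of all genes) and 0 of 32 for Sav1 (0.0228%). The interaction called 0 of 32 and 0% of all genes. At an unadjusted p under 0.05, the counts were 3 of 32 in Rassf1a-/- (10.4% of all genes), 0 in Sav1+/- (9.15%), 5 in the double genotype (13.6%), 5 for averaged Rassf1a (15.3%), 5 for averaged Sav1 (14.8%) and 1 for the interaction (9.4%). In each comparison the list's share lay near or below that of all genes.

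The intervals show what these arrays could resolve. The 95% interval of a difference from wild type had a median half-width of 0.44 on the log2 scale over the 32 genes, from 0.26 for Vgll4 to 2.15 for Nt5e. In Rassf1a-/- the interval lay within 1 log2 unit of 0 for 30 of 32 genes, in Sav1+/- for 26 and in the double genotype for 26. It lay within a 1.5-fold change for 13, 18 and 13 genes. Changes of 2-fold were thus outside the interval for 26 or more of the 32 genes in each comparison. RNA from whole liver was measured, so fewer cells of a type and less RNA per cell cannot be told apart for any gene below.

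**Figure D1:**
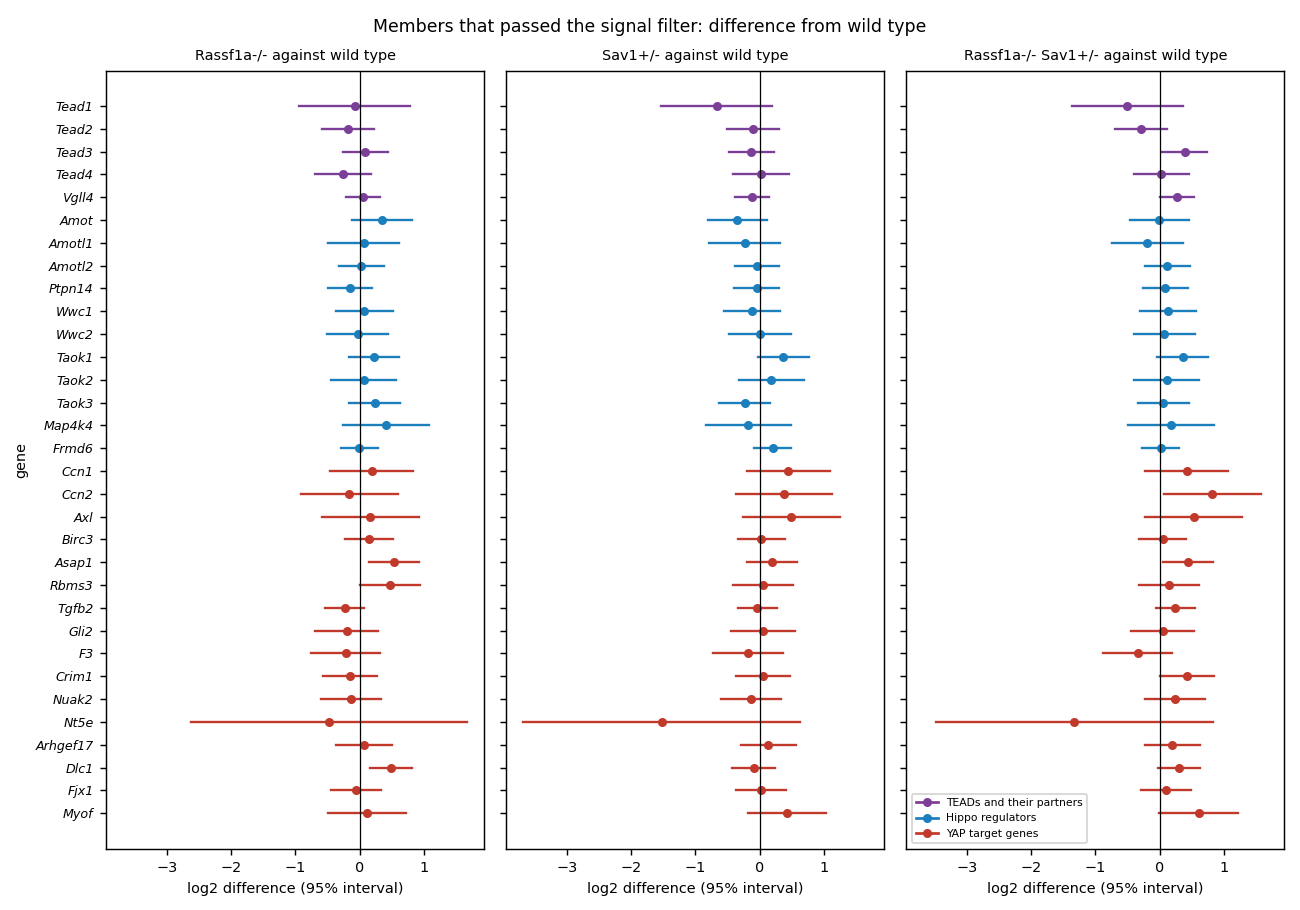
Difference from wild type on the log2 scale (horizontal axis) for the 32 genes that passed the signal filter, in Rassf1a-/-, Sav1+/- and the double genotype; points are limma estimates and lines their 95% intervals. Most intervals cross 0, and the widest are those of Nt5e, with a half-width of 2.15, and Tead1.

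The TEAD genes, which encode the DNA-binding partners of YAP, showed no called difference by genotype. Tead1 read 8.78, 8.16, 8.60 and 8.36 in wild type, 8.65, 7.66, 8.31 and 8.97 in Rassf1a-/-, 7.87, 9.05, 7.23 and 7.08 in Sav1+/-, and 7.41, 7.25, 8.41 and 8.81 in the double genotype (log2 signal, replicates 1 to 4). Its 5 lowest values were those of the 5 high-Y arrays. The Sav1+/- mean of 7.81 ± 0.90 (SD, n = 4) stood 0.67 below the wild-type mean of 8.48 ± 0.27 (difference -0.67, SE 0.41, adjusted p = 0.669), and without the high-Y arrays the difference was -0.01. In the double genotype the difference was -0.51, and +0.13 without them.

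Tead2 read 7.74, 7.95, 7.93 and 7.93 in wild type, 7.52, 7.67, 7.96 and 7.66 in Rassf1a-/-, 7.86, 7.66, 8.16 and 7.46 in Sav1+/-, and 7.48, 7.05, 8.04 and 7.81 in the double genotype. All groups overlapped, and the double genotype differed from wild type by -0.29 (SE 0.19, adjusted p = 0.545), and by +0.03 without the high-Y arrays. Tead4 read 8.37, 8.40, 8.52 and 8.55 in wild type, 8.20, 8.0, 8.52 and 8.12 in Rassf1a-/-, 9.01, 8.13, 8.67 and 8.09 in Sav1+/-, and 8.66, 8.45, 8.82 and 8.01 in the double genotype. Wild-type Tead4 values were tight, with an SD of 0.09 against 0.44 in Sav1+/-. The difference in Rassf1a-/- was -0.25 (SE 0.21, adjusted p = 0.671).

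Tead3 and Vgll4 had their highest mean in the double genotype, by differences that did not pass the test. Tead3 read 8.44, 8.19, 8.59 and 8.32 in wild type, 8.63, 8.35, 8.34 and 8.57 in Rassf1a-/-, 7.75, 8.44, 8.26 and 8.57 in Sav1+/-, and 8.58, 9.01, 8.64 and 8.85 in the double genotype. The lowest array of the double genotype lay just below the highest wild-type array. The difference was +0.38 (SE 0.17, 95% interval 0.03 to 0.74, adjusted p = 0.326) in the double genotype and +0.30 (SE 0.12, adjusted p = 0.214) for averaged Rassf1a. Vgll4 encodes a repressor that competes with YAP for TEAD proteins. It read 10.21, 10.01, 9.74 and 9.92 in wild type, 10.17, 9.92, 10.01 and 9.99 in Rassf1a-/-, 9.92, 9.77, 9.70 and 9.99 in Sav1+/-, and 10.24, 10.15, 10.20 and 10.38 in the double genotype. Only the highest wild-type array reached the range of the double genotype, whose SD was 0.10. The difference was +0.27 (SE 0.12, adjusted p = 0.347) there and +0.23 (SE 0.09, adjusted p = 0.209) for averaged Rassf1a.

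**Figure D2:**
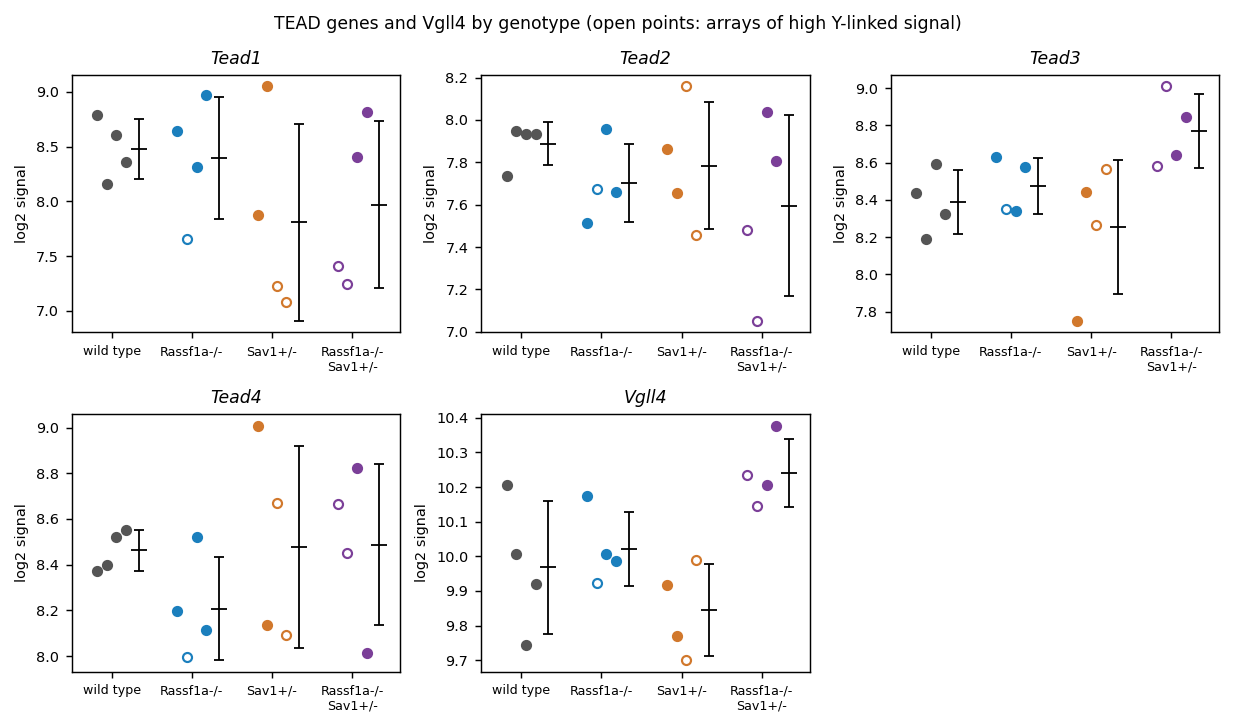
Log2 signal (vertical axis) of the 4 Tead genes and Vgll4 in each of the 16 arrays by genotype, with the mean and SD beside each group (n = 4). Open points are the 5 high-Y arrays, which hold the 5 lowest Tead1 values.

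On the probe sets used, the Hippo regulators, 11 of which were tested, gave no called gene in any comparison. None had an unadjusted p under 0.05 against wild type on them, unlike a second Taok1 probe set given below. In Rassf1a-/- 8 of 11 lay above wild type with a median difference of +0.06, in Sav1+/- 4 of 11 (median -0.05) and in the double genotype 9 of 11 (median +0.09). Over all genes 48.3%, 45.9% and 58.7% lay above wild type, with medians of -0.01, -0.02 and +0.05. The angiomotins Amotl1 and Amotl2, which bind YAP and hold it in the cytoplasm, differed from wild type by -0.24 to +0.06 and by -0.04 to +0.12; the Amotl1 value of -0.24, in Sav1+/-, was +0.03 without the high-Y arrays. Ptpn14, a phosphatase that binds YAP, differed by -0.15 to +0.09, and the scaffolds Wwc1 and Wwc2, which act on the Lats kinases, by -0.12 to +0.13 and -0.03 to +0.07. Frmd6, an upstream FERM-domain protein, differed by -0.01 to +0.20, with an SD within genotypes of 0.16, among the smallest of the list. Ajuba, which binds and inhibits the Lats kinases, lay between 5.38 and 7.36 over the 16 arrays, below the filter in all but 1.

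Amot, the third angiomotin, was the regulator with an unadjusted p under 0.05 in the averaged comparisons on the probe sets used. It read 6.95, 6.69, 7.08 and 7.42 in wild type, 7.45, 6.94, 7.30 and 7.83 in Rassf1a-/-, 6.59, 6.50, 6.95 and 6.70 in Sav1+/-, and 6.76, 7.12, 6.66 and 7.57 in the double genotype. The Rassf1a-/- values tended highest and the Sav1+/- values lowest, with overlap throughout. The averaged Rassf1a difference was +0.34 (SE 0.15, adjusted p = 0.292) and the averaged Sav1 difference -0.35 (SE 0.15, adjusted p = 0.297), at a signal that reached the filter in 4 arrays. Without the high-Y arrays the averaged Rassf1a difference was +0.53 (adjusted p = 0.311). Among the kinases upstream of Stk3 and Stk4, Taok1 differed by +0.37 in Sav1+/- (SE 0.19, adjusted p = 0.596) and by +0.35 in the double genotype (SE 0.19, adjusted p = 0.432). A second Taok1 probe set, not among those counted, gave +0.37 and +0.55 (SE 0.18 each, limma, unadjusted p = 0.0574 and 0.00701). For averaged Sav1 it gave +0.41 (SE 0.13, limma, unadjusted p = 0.00546). Taok2 differed by +0.06 to +0.18 and Taok3 by -0.23 to +0.23, its Sav1+/- value of -0.23 being +0.05 without the high-Y arrays. Map4k4, which phosphorylates the Lats kinases, differed by +0.40 in Rassf1a-/- (SE 0.32), -0.18 in Sav1+/- and +0.17 in the double genotype, against +0.52, +0.41 and +0.43 without the high-Y arrays, and is taken up below with the Y-linked split.

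Of the YAP target genes, 16 of 17 were tested. In the double genotype 14 of the 16 lay above wild type with a median difference of +0.24, against 58.7% of all genes and a median of +0.05. In Rassf1a-/- 8 of 16 did (median +0.00, against 48.3% of all genes) and in Sav1+/- 11 of 16 (median +0.05, against 45.9%). None of the 16 was called in these comparisons. The double genotype's count was 13 of 16 with a median of +0.20 after quantile normalization and 14 of 16 with a median of +0.29 without the high-Y arrays. In the same comparison 6 of 7 Kupffer cell markers lay higher (median +0.50) and 6 of 8 sinusoidal endothelial markers (median +0.31, Lyve1 at +1.15); their part in the count of targets was not tested. Groups did not overlap for 2 of the 32 genes in the double genotype, Asap1 and Axl, both higher (6.28% of all genes were higher without overlap), and for 0 of 32 in Rassf1a-/- (10.9% of all genes in either direction) and in Sav1+/- (4.68%).

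Ccn1, Ccn2 and Ankrd1 are the most widely used readouts of YAP activity. Ccn2, a secreted matrix-associated protein, read 8.40, 8.67, 8.35 and 8.77 in wild type, 8.49, 7.86, 8.23 and 8.98 in Rassf1a-/-, 8.81, 8.72, 8.74 and 9.42 in Sav1+/-, and 9.64, 8.63, 10.63 and 8.55 in the double genotype. The 2 highest of the 16 values came from the double genotype, replicates 1 and 3, while its other 2 arrays lay inside the wild-type range. The means were 8.55 ± 0.20, 8.39 ± 0.47, 8.92 ± 0.33 and 9.36 ± 0.98 (SD, n = 4), so the double genotype had the largest spread. Its difference from wild type was +0.81 (SE 0.36, 95% interval 0.06 to 1.57, limma, adjusted p = 0.326). When 1 array was left out it ran from +0.39 without replicate 3 to +1.08 without replicate 4, and never passed. Averaged over Rassf1a states, the Sav1 difference was +0.67 (SE 0.25, 95% interval 0.14 to 1.21, adjusted p = 0.225), and the interaction was +0.60 (SE 0.50, adjusted p = 0.758).

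Ccn1, a relative of Ccn2, read 6.97, 8.06, 8.21 and 8.37 in wild type, 8.19, 8.41, 7.81 and 7.95 in Rassf1a-/-, 7.98, 9.08, 8.09 and 8.22 in Sav1+/-, and 7.98, 7.91, 8.94 and 8.48 in the double genotype. One low wild-type array and one high array in each Sav1+/- group set the spread, and all groups overlapped. The differences from wild type were +0.19, +0.44 and +0.42 (SE 0.31 each), with adjusted p = 0.597 in the double genotype. Without the high-Y arrays the double genotype differed by +0.80 (SE 0.37, adjusted p = 0.998) and averaged Sav1 by +0.68, neither called. Ankrd1, a nuclear ankyrin-repeat protein, stayed below the filter in all arrays. It read 6.68, 6.51, 6.50 and 6.47 in wild type, 6.67, 6.39, 6.59 and 6.31 in Rassf1a-/-, 6.53, 5.93, 6.87 and 6.06 in Sav1+/-, and 6.98, 6.77, 6.45 and 6.41 in the double genotype. In a fit without the filter it differed by -0.05, -0.19 and +0.12 (SE 0.19 each), with adjusted p-values of 0.946, 0.894 and 0.914. Its values sat in a narrow band in wild type and spread widest in Sav1+/-.

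Crim1, a membrane protein that binds bone morphogenetic proteins, and Myof, a ferlin of membrane repair, were also among the genes with an unadjusted p under 0.05 for Sav1. Crim1 read 8.69, 8.77, 8.59 and 9.24 in wild type, 8.87, 8.35, 8.49 and 9.0 in Rassf1a-/-, 8.38, 9.0, 8.82 and 9.30 in Sav1+/-, and 9.31, 9.22, 9.37 and 9.07 in the double genotype. The double genotype was tight (SD 0.13) and above 3 of the 4 wild-type arrays. The difference was +0.42 there (SE 0.20, adjusted p = 0.365) and +0.31 for averaged Sav1 (SE 0.14, adjusted p = 0.314), the latter +0.15 without the high-Y arrays. Myof read 7.36, 6.98, 7.28 and 7.55 in wild type, 7.35, 7.28, 7.01 and 7.96 in Rassf1a-/-, 7.19, 8.49, 7.19 and 7.96 in Sav1+/-, and 8.51, 7.79, 7.38 and 7.90 in the double genotype. Its averaged Sav1 difference was +0.46 (SE 0.20, adjusted p = 0.307).

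Axl, a receptor tyrosine kinase, was higher in all 4 arrays of the double genotype than in the wild-type arrays without passing the test. It read 9.37, 9.10, 9.70 and 9.44 in wild type, 9.69, 9.10, 9.21 and 10.26 in Rassf1a-/-, 9.14, 11.19, 9.31 and 9.93 in Sav1+/-, and 10.41, 9.82, 9.70 and 9.78 in the double genotype. The lowest array of the double genotype and the highest wild-type array both round to 9.70, and the highest value of all was Sav1+/- replicate 2. The difference in the double genotype was +0.53 (SE 0.35, adjusted p = 0.557), and +0.34 without the high-Y arrays.

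Markers of Kupffer cells, the liver's resident macrophages, peaked in the same Sav1+/- and double-genotype arrays as Axl. All 7 markers passed the filter; their mean ranged from 9.25 to 10.3 in wild type, 9.02 to 9.86 in Rassf1a-/-, 9.40 to 10.8 in Sav1+/- (highest in replicate 2) and 9.66 to 10.6 in the double genotype (highest in replicate 1). For averaged Sav1, 7 of 7 lay higher with a median of +0.36, and none was called. Over all genes 54.0% lay higher in that comparison, with a median of +0.02. After subtraction of genotype means, Axl and the marker mean correlated at Pearson r = 0.882 over the 16 arrays (permutation p = 7e-05, adjusted p = 0.00028) and Spearman rho = 0.821 (permutation p = 0.0005). Without the 2 arrays farthest from the median of Axl, r was 0.820, and within the other 11 arrays r was 0.888 (permutation, adjusted p = 0.0371), while rho there was 0.736 (permutation, adjusted p = 0.104) and did not pass. For Myof, r was 0.723 (permutation, adjusted p = 0.0133) and rho 0.6 (permutation p = 0.0405, adjusted p = 0.0809), and r was 0.516 without the 2 farthest arrays. Within the 11 arrays the Myof r was 0.677 (permutation, adjusted p = 0.202). These are 2 of 4 marker relations chosen after the values had been seen, with p-values adjusted over the 4, and the part of Kupffer cells in the Axl and Myof values was not tested.

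**Figure D3:**
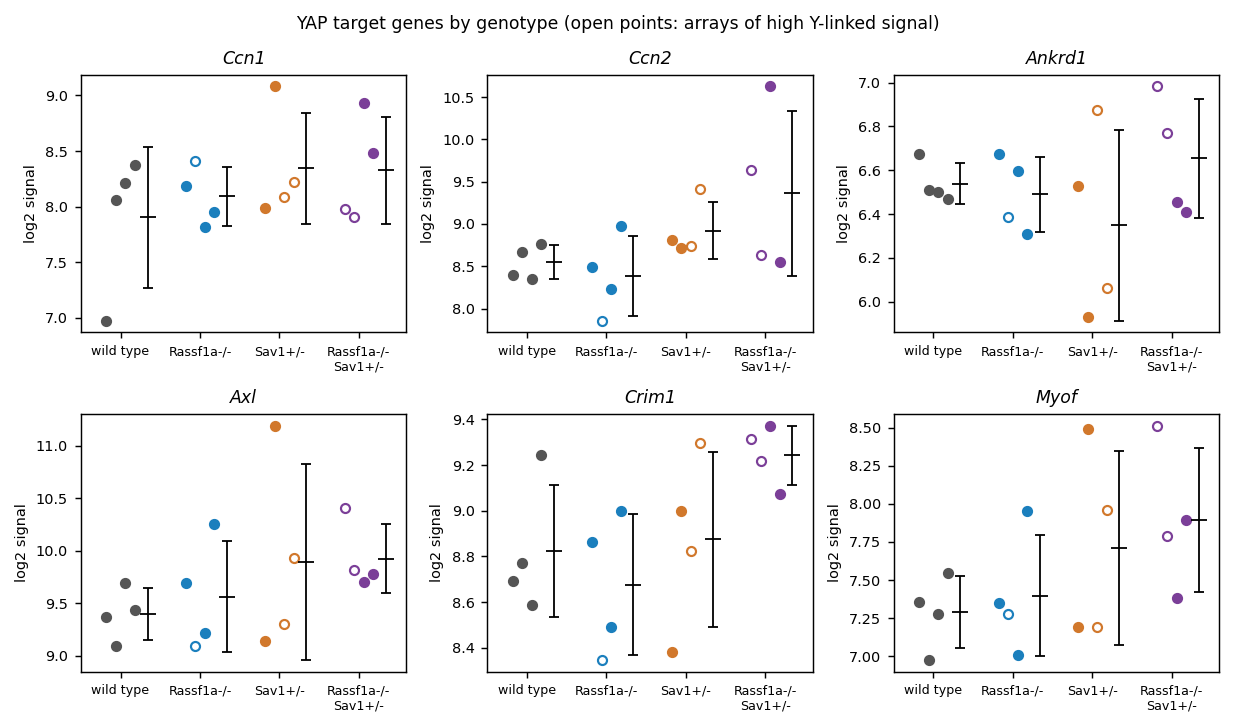
Log2 signal (vertical axis) of Ccn1, Ccn2, Ankrd1, Axl, Crim1 and Myof in each array by genotype, with mean and SD (n = 4); open points are high-Y arrays. The double genotype's Ccn2 values run from 8.55 to 10.63, and its Crim1 values stay between 9.07 and 9.37.

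The target genes with the smallest p-values for Rassf1a were Dlc1 and Asap1. Dlc1, known as a liver tumour suppressor, read 9.35, 9.14, 9.34 and 9.56 in wild type, 9.85, 10.08, 9.48 and 9.90 in Rassf1a-/-, 9.11, 9.57, 9.31 and 9.01 in Sav1+/-, and 9.66, 9.74, 9.46 and 9.71 in the double genotype. Replicate 3 was the lowest array in both groups without Rassf1a and overlapped the groups that have it. Means were 9.35 ± 0.18, 9.83 ± 0.25, 9.25 ± 0.25 and 9.64 ± 0.13 (SD, n = 4). Averaged over the Sav1 states, Dlc1 rose by +0.44 with loss of Rassf1a (SE 0.11, 95% interval 0.21 to 0.67, adjusted p = 0.0461), a 1.35-fold change. Against wild type it differed by +0.48 in Rassf1a-/- (SE 0.16, adjusted p = 0.232), -0.10 in Sav1+/- and +0.30 in the double genotype (SE 0.16, adjusted p = 0.424). A second Dlc1 probe set differed by +0.28, +0.05 and +0.39, and by +0.31 for averaged Rassf1a (SE 0.13). Its signal was low, with means of 6.89, 7.17, 6.95 and 7.28, near or below the filter level of 7.16 to 7.44.

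The Dlc1 call lay close to the threshold. It was kept without Rassf1a-/- replicate 3, Sav1+/- replicate 2, wild-type replicate 4 or double-genotype replicate 3, and lost without any other 1 array, with adjusted p-values of 0.0673 to 0.107. Without the high-Y arrays the difference was +0.32 (adjusted p = 0.465), and with Y-linked signal as a covariate +0.43 (adjusted p = 0.0535); it stayed above 0 in each of these fits. Of 8 sinusoidal endothelial markers, 7 lay higher in the same comparison, against 55.1% of all genes. The median of these 8 markers was +0.10, with Lyve1 at +1.04 (limma, adjusted p = 0.0562). The mean of the endothelial markers ranged from 9.62 to 9.97 in wild type, 9.68 to 10.3 in Rassf1a-/-, 9.66 to 10.2 in Sav1+/- and 9.91 to 10.3 in the double genotype. Of 9 stellate cell and fibroblast markers 5 lay higher, with Pdgfrb at +0.45 (adjusted p = 0.0663), and their mean ranged from 9.42 to 9.91, 9.48 to 9.98, 9.51 to 9.82 and 9.63 to 9.90 in the same order. Dlc1 correlated with the endothelial mean at r = 0.420 within genotypes over 16 arrays (permutation p = 0.205, adjusted p = 0.274; rho = 0.385, permutation p = 0.206) and at r = 0.934 over the other 11 arrays (permutation p = 0.00176, about the smallest those arrays allow; adjusted p = 0.00352). With the stellate mean, r was 0.304 (permutation, adjusted p = 0.329; rho = 0.265) and 0.778 (permutation, adjusted p = 0.00352). Without the 2 farthest arrays the 16-array values were 0.0923 and 0.154. These relations were chosen after the values had been seen, and the part of endothelial or stellate cells in the Dlc1 difference was not tested.

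Asap1, an Arf GTPase-activating protein, read 8.36, 8.59, 8.72 and 8.95 in wild type, 9.22, 8.86, 9.29 and 9.37 in Rassf1a-/-, 8.41, 9.31, 8.69 and 8.97 in Sav1+/-, and 9.16, 9.0, 8.97 and 9.25 in the double genotype. All 4 arrays of the double genotype and 3 of 4 Rassf1a-/- arrays lay above wild type, while Sav1+/- replicate 2 was as high as they were. The differences were +0.53 in Rassf1a-/- (SE 0.18, 95% interval 0.15 to 0.92, adjusted p = 0.279), +0.44 in the double genotype (SE 0.18, adjusted p = 0.297) and +0.39 for averaged Rassf1a (SE 0.13, adjusted p = 0.129). When each array was left out in turn, the averaged difference passed in 1 of 16 fits. That fit was without Sav1+/- replicate 2, at +0.47 (limma, adjusted p = 0.0329). In the others it did not pass, with limma adjusted p-values up to 0.265. Rbms3, an RNA-binding protein, read 7.57, 7.91, 7.55 and 7.91 in wild type, 8.43, 7.96, 7.90 and 8.52 in Rassf1a-/-, 7.16, 8.10, 7.86 and 8.02 in Sav1+/-, and 7.93, 7.62, 7.63 and 8.33 in the double genotype. Its difference in Rassf1a-/- was +0.47 (SE 0.22, adjusted p = 0.479), with 1 array of that group inside the wild-type range.

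Tgfb2, a ligand of the TGF-beta family, was the gene with an unadjusted p under 0.05 in the interaction. It read 7.85, 7.72, 7.73 and 8.0 in wild type, 7.73, 7.59, 7.57 and 7.46 in Rassf1a-/-, 7.96, 7.65, 7.89 and 7.65 in Sav1+/-, and 7.87, 8.19, 8.40 and 7.82 in the double genotype. Rassf1a-/- held the lowest mean (7.59 ± 0.11) and the double genotype the highest (8.07 ± 0.27). The interaction was +0.52 (SE 0.20, 95% interval 0.09 to 0.95, adjusted p = 0.447) and the averaged Sav1 difference +0.22 (SE 0.10, adjusted p = 0.318). None of the remaining targets had an unadjusted p under 0.05: Birc3, an inhibitor of apoptosis, differed by +0.03 to +0.15, the Hedgehog factor Gli2 by -0.20 to +0.05, and F3, the tissue factor of coagulation, by -0.34 to -0.18 (+0.14 in Sav1+/- without the high-Y arrays). The kinase Nuak2 differed by -0.13 to +0.23, the exchange factor Arhgef17 by +0.07 to +0.19, and Fjx1 by -0.06 to +0.10.

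**Figure D4:**
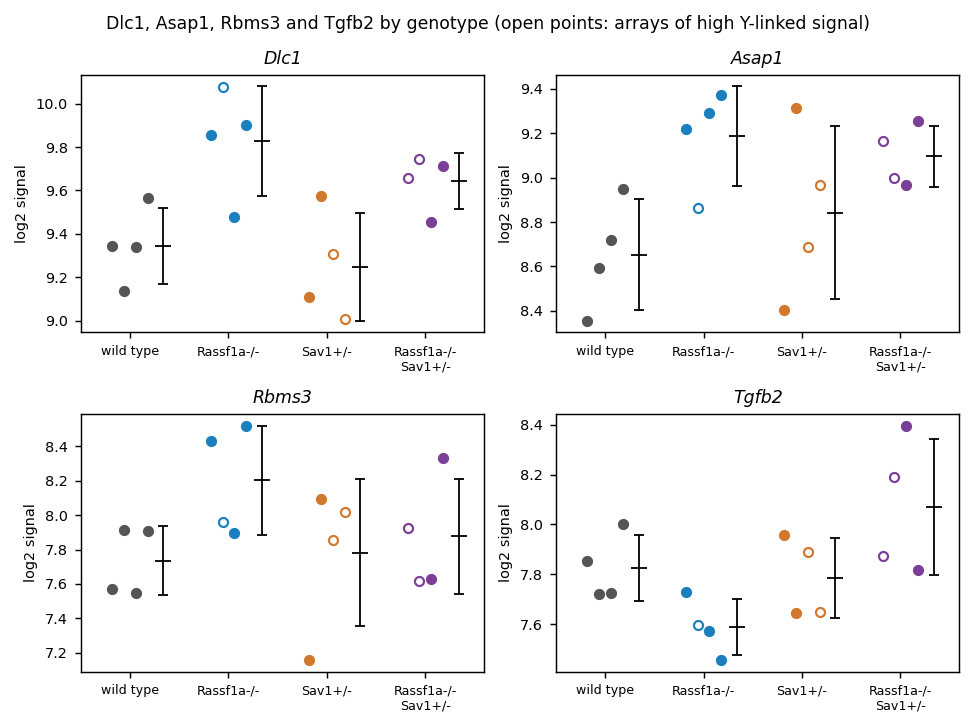
Log2 signal (vertical axis) of Dlc1, Asap1, Rbms3 and Tgfb2 in each array by genotype, with mean and SD (n = 4); open points are high-Y arrays. The Dlc1 means are 9.83 and 9.64 in the groups without Rassf1a against 9.35 and 9.25 in the others.

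The largest differences among the genes described ran with the Y-linked split and not with a genotype. Nt5e, the ectoenzyme CD73 that forms adenosine from AMP, read 11.02, 11.23, 10.95 and 11.23 in wild type, 11.71, 7.90, 11.54 and 11.35 in Rassf1a-/-, 10.86, 11.89, 7.96 and 7.63 in Sav1+/-, and 7.89, 8.34, 11.40 and 11.50 in the double genotype. The 5 high-Y arrays lay at 7.63 to 8.34 and the other 11 at 10.9 to 11.9, with nothing between. In a fit of that split within genotypes, added after the values had been seen, Nt5e was lower by 11.4-fold in the high-Y arrays (difference -3.50, SE 0.16, adjusted p = 5.47e-11). Within each genotype that holds both kinds of array the difference was -3.63, -3.58 and -3.34. Against wild type, which has no high-Y array, Nt5e differed by -1.52 in Sav1+/- (SE 1.02, adjusted p = 0.703) and by -1.33 in the double genotype (SE 1.02, adjusted p = 0.625). Without those arrays the differences turned to +0.27 and +0.34 (SE 0.25 each). In Rassf1a-/- Nt5e differed by -0.48 (SE 1.02). Its 3 arrays of that genotype outside the high-Y set averaged 11.53, against 11.11 in wild type.

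In the same fit 3 of 32 genes were called, all lower (4.73% of all genes were called), and 5 of 32 had an unadjusted p under 0.05 (13.8%). The log2 signal of Tead1 fell by 1.21 in the high-Y arrays (SE 0.19, 2.31-fold, adjusted p = 0.000395), with values of 7.08 to 7.66 against 7.87 to 9.05 in the others. Its second probe set gave -0.86 (SE 0.17, 1.82-fold, adjusted p = 0.00322), and the difference within Rassf1a-/-, Sav1+/- and the double genotype was -0.99, -1.31 and -1.28. Map4k4 read 6.96, 7.0, 6.90 and 7.35 in wild type, 7.82, 7.11, 7.21 and 7.68 in Rassf1a-/-, 7.15, 7.76, 6.05 and 6.53 in Sav1+/-, and 7.5, 6.44, 7.29 and 7.69 in the double genotype. The 2 kinds of array overlapped for it. It was lower by 0.74 (difference -0.74, SE 0.20, adjusted p = 0.0423), a call kept without Rassf1a-/- replicate 3, Sav1+/- replicate 1, wild-type replicate 4 or double-genotype replicate 1 or 3, and lost without any other 1 array (adjusted p up to 0.145). It was also lost after quantile normalization (adjusted p = 0.0638), with arrays centred on their median (0.0610) and with no filter (0.0732). Arhgef17 (-0.47, adjusted p = 0.0563) and Taok3 (-0.40, adjusted p = 0.114) were next and did not pass. Arhgef17 read 7.36, 7.62, 7.62 and 7.75 in wild type, 7.82, 7.15, 7.63 and 8.02 in Rassf1a-/-, 8.05, 7.95, 7.64 and 7.23 in Sav1+/-, and 7.94, 7.40, 7.98 and 7.81 in the double genotype. Taok3 read 9.45, 9.26, 9.47 and 9.53 in wild type, 9.98, 9.49, 9.53 and 9.64 in Rassf1a-/-, 9.15, 9.80, 8.79 and 9.04 in Sav1+/-, and 9.36, 9.23, 9.57 and 9.76 in the double genotype. The high-Y arrays overlapped the others for both genes.

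**Figure D5:**
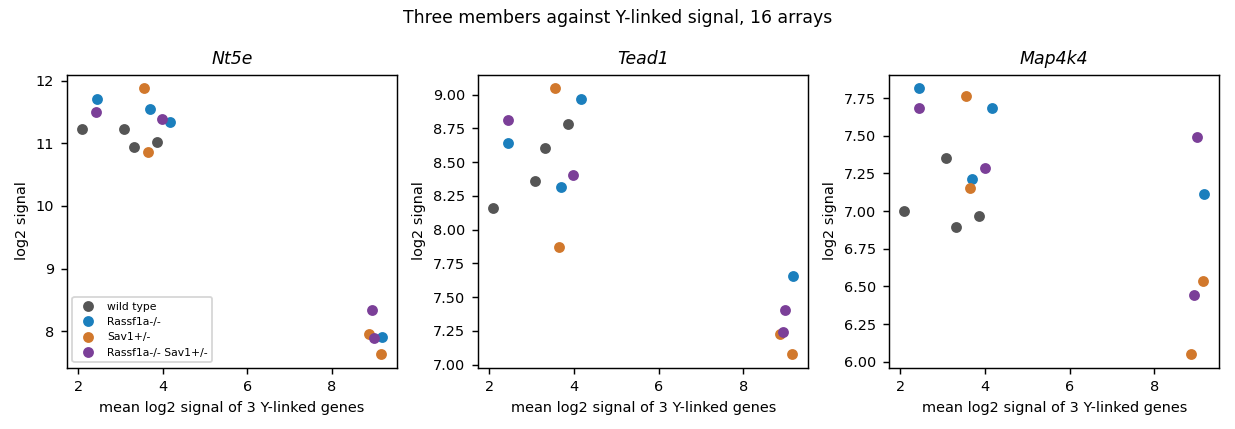
Log2 signal of Nt5e, Tead1 and Map4k4 (vertical axes) against the mean log2 signal of 3 Y-linked genes (horizontal axis) in the 16 arrays, coloured by genotype. The 5 arrays at the right, from 3 genotypes, are lower for Nt5e (7.63 to 8.34) and Tead1 (7.08 to 7.66) than every other array, whereas Map4k4 overlaps.

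The spread between arrays of a genotype varied widely among these genes. The SD within genotypes had a median of 0.310 over the 32 genes and 0.261 over all genes tested. It was highest for Nt5e (1.70), Tead1 (0.67), Ccn2 (0.58), Axl (0.57) and Map4k4 (0.50), and lowest for Vgll4 (0.14), Frmd6 (0.16) and Tgfb2 (0.18).

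The other genes of the pathway were taken from 2 further lists. Of 30 other Hippo pathway genes 22 were tested, and only Sav1 was called: it was lower in the double genotype (difference -0.88, adjusted p = 0.0230) and for averaged Sav1. Stk4, the core kinase also called Mst1, differed by +0.30 in Rassf1a-/- (adjusted p = 0.476) and by +0.33 for averaged Rassf1a (adjusted p = 0.0876). In the double genotype 15 of the 22 lay above wild type, with a median of +0.10, against 58.7% of all genes and a median of +0.05. Of 10 other YAP target genes 7 were tested and none was called in any of the 6 comparisons. Jag1, a Notch ligand, came closest, at +0.41 in the double genotype (adjusted p = 0.165) and +0.31 for averaged Sav1 (adjusted p = 0.151). In the double genotype 5 of the 7 lay higher, with a median of +0.06.

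Immediate early genes, which are induced rapidly by stress and serum as Ccn1 and Ccn2 are, were examined beside them. Of 11 such genes 8 were tested and none was called. In Rassf1a-/- 7 of the 8 lay below wild type with a median of -0.42, 4 of them with an unadjusted p under 0.05, against 539 of all 13152 genes lower at that p and a median of -0.01. Jun, a subunit of AP-1, differed by -0.66 (adjusted p = 0.232). For averaged Rassf1a, Junb differed by -0.66 (adjusted p = 0.0829). The mean over the 11 genes ranged from 8.20 to 8.87 in wild type, 7.94 to 8.35 in Rassf1a-/-, 8.24 to 8.69 in Sav1+/- and 8.07 to 8.43 in the double genotype. Ccn1 and Ccn2 lay at differences of +0.19 and -0.16 in Rassf1a-/-, beside the lower immediate early genes.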

How the data were processed

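Total RNA from 16 mouse liver samples was isolated with a Purelink kit, labelled with biotin by the Affymetrix sense-target assay and hybridised to gene arrays, per the labels' protocols. The authors deposited log2 signals per probe set. The submitters' processing notes name Affymetrix Expression Console (version, background correction and normalization: not given in the sources used here). Of 35556 probe sets, 23410 have a gene in the platform annotation, 1621 of them several; the 21789 with 1 gene were used, and RefSeq's gene table held 21698 of them.

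The filter level (40th percentile of those 21789) lay between 7.16 and 7.44. A model of 4 genotype means (12 residual degrees of freedom) was fitted in R 4.3.3 with lmFit and eBayes of limma 3.58.1, with data.table (version 1.17.8) for reading; tests were two-sided, with Benjamini-Hochberg adjustment over 13152 genes in each of 6 comparisons. They set the 3 altered genotypes against wild type, and the arrays without Rassf1a or with 1 Sav1 copy against those without that lesion (averaged effects), plus the interaction. Replicates were numbered in deposited order. Correlations used genotype-centred values and 100000 permutations within genotypes. The number of arrays limits the precision.

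On simulated data for Rassf1a-/- against wild type (13152 genes, 10 runs, 200 genes changed), 17.9% of changes of 0.5 log2 units were recovered, 75.8% of changes of 1 and 97.6% of changes of 2, with 4.22% false calls. The simulated noise was drawn independently for each gene and array, so it held no shared Y-linked split. Changed genes were drawn from all tested genes, whose median SD within genotypes was 0.261 against 0.310 for the 32.

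The 34 genes and the gene lists were chosen with earlier results of these data known. Values in every array are given for genes called, with an unadjusted p under 0.05 or with groups that do not overlap, and for Ccn1, Ccn2, Ankrd1 and the 4 Tead genes. Alternatives were other filters, averaging the probe sets of a gene, quantile or median scaling, array weights, trend and robust variances, only the compared genotypes, Y-linked signal as a covariate or as a reason to leave arrays out, and each array left out in turn. A filter over all probe sets, the comparison by Y-linked signal and the relations with cell markers were added after seeing the data.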

Additional observations from a re-analysis of the deposited data

Results flagged for a closer look

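In 5 of 136 groups of 4 arrays (3.68%) the highest or lowest array stood far from the other 3 by Dixon's test, and chance alone gives about 1 in 20 such groups. Tead2 in wild-type replicate 1 was 7.74, against 7.93 to 7.95 in the others. Wwc2 in Rassf1a-/- replicate 3 was 8.27, against 8.82 to 8.88. Ccn2 in Sav1+/- replicate 4 was 9.42, against 8.72 to 8.81. Axl in replicate 1 of the double genotype was 10.4, against 9.70 to 9.82, in the array with that group's highest Kupffer cell marker mean. Nt5e in Rassf1a-/- replicate 2 was 7.90, against 11.3 to 11.7, in the only high-Y array of that genotype. No interaction between Rassf1a and Sav1 was called for any of the 32 genes.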

How the results depend on the processing

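No paired analysis was possible because no label numbers the replicates. Refits numbered 558 for 22 differences: those between genotypes called or with an unadjusted p under 0.05, and those called by Y-linked signal. Arhgef17 and Taok3, which had an unadjusted p under 0.05 by Y-linked signal without being called, were not among them. Of the refits, 521 kept the direction and the side of the threshold, 31 no longer passed, 6 newly passed and 0 changed direction. Those kept include differences that were not called at first and stayed so. The Dlc1 call for averaged Rassf1a was kept in 9 of 26 refits, and the Map4k4 call by Y-linked signal in 6 of 20. Of 321 refits of 12 other differences with a test, 5 changed direction: Nt5e in Sav1+/- (+0.27 without the high-Y arrays, +0.41 with Y-linked signal as a covariate) and in the double genotype (+0.34 and +0.48), and Tead2 in the double genotype (+0.033 without the high-Y arrays). For averaged Rassf1a, 1 of 32 genes was called; the count was 0 with Y-linked signal as a covariate, with arrays centred on the median, with no filter, with the filter over all probe sets and without the high-Y arrays, and 0 to 2 when 1 array was left out. Array weights of 0.276 to 2.58 raised counts to 3 for averaged Rassf1a (Asap1, Dlc1 and Map4k4) and 3 for Rassf1a-/- (Asap1, Dlc1 and Rbms3). With them 1 gene was called for the double genotype (Asap1) and 3 for averaged Sav1 (Nt5e, Taok3 and Tead1). Those 3 genes also differed by -3.50, -0.40 and -1.21 between high-Y and other arrays within genotypes. Sav1+/- and the double genotype hold 2 high-Y arrays each, Rassf1a-/- 1 and wild type 0. The cause of the added calls was not tested. The comparison by Y-linked signal called 2 to 4 genes when 1 array was left out, always with Nt5e and Tead1. The relation of Myof with the Kupffer cell marker mean no longer passed after quantile normalization (r = 0.625) or without the high-Y arrays (r = 0.677). Without those arrays the relations of Dlc1 with the endothelial mean (r = 0.934) and the stellate mean (r = 0.778) passed; the cause was not tested. With 4 arrays a group, changes of 0.5 log2 units were mostly below detection in the simulation.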

Other observations

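The readouts Ccn1, Ccn2 and Ankrd1 were also set against each other across arrays. After subtraction of genotype means, 5 relations over the 16 arrays were computed with p-values adjusted over the 5. Ccn1 and Ccn2 correlated at Pearson r = 0.216 (permutation p = 0.480, adjusted p = 0.619) and Spearman rho = 0.0147 (permutation p = 0.965), with r = 0.311 without the 2 arrays farthest from the median of Ccn1. Ccn1 and Ankrd1 gave r = -0.616 (permutation p = 0.0119, adjusted p = 0.0597) and rho = -0.674 (permutation p = 0.0116, adjusted p = 0.0581), with r = -0.552 without those 2 arrays and -0.630 over the other 11 arrays. Ankrd1 lay below the signal filter in every array, and this relation did not pass the adjustment. Ccn2 and Ankrd1 gave r = -0.160 (permutation p = 0.618) and rho = -0.0147. With the mean of the immediate early genes, r was 0.162 for Ccn1 (permutation p = 0.619, rho = 0.126) and 0.225 for Ccn2 (permutation p = 0.371, rho = 0.109), and neither passed.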
